A study of Homo sapiens with 6 samples.

Results

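The genes described here are those of the WNT signalling pathway: ligands, the proteins that release them, receptors, antagonists, feedback regulators and transcription factors. They were taken as every row of the deposited count table whose symbol matched a fixed pattern of WNT pathway names (WNT, FZD, SFRP, DKK, LGR4 to LGR6, AXIN, NKD, NOTUM, RNF43, ZNRF3, TCF7 and its relatives, LEF1, APCDD1, KREMEN, WIF1, PORCN and WLS). The pattern took 48 genes of 21676 in all: 16 WNT ligands, 2 secretion factors, 10 Frizzled receptors, 2 LGR receptors, 2 ubiquitin ligases, 8 extracellular antagonists and KREMEN proteins, 4 AXIN and NKD genes and 4 TCF/LEF factors. RNA was sequenced from 3 libraries of cells of the 83 line that overexpressed ApoD and from 3 control libraries of that line. The submitters call the line a SACC cell, an abbreviation commonly used for salivary adenoid cystic carcinoma, and apolipoprotein D is a secreted lipid-binding protein of the lipocalin family. The labels do not state how ApoD was introduced, what the controls received, or whether the cells were a clone or a pool. They do not say either that the numbered libraries came from separate cultures, so the p-values measure only the spread between libraries, which may be technical.

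WNT proteins are secreted ligands that carry a lipid, which PORCN attaches and which WLS needs to take them to the cell surface. There they bind a Frizzled receptor, and with the co-receptors LRP5 or LRP6 this stops the AXIN-based complex from destroying beta-catenin, which then acts with TCF/LEF factors on target genes. Other WNTs act through Frizzleds without beta-catenin, on cell polarity and movement. Several of the inhibitors, AXIN2, DKK1, NOTUM, NKD1, RNF43 and ZNRF3 among them, are themselves targets of the pathway in many tissues and feed back on it. In salivary glands the pathway takes part in duct and acinar development.

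The libraries held 37542568 to 40416964 counts with ApoD overexpression and 38845545 to 39583565 counts in controls. APOD had 628, 528 and 625 counts with ApoD overexpression, against 9, 8 and 2 counts in controls. On principal component analysis the groups separated on the first component, which carried 73.3% of the variance, with control replicate 1 nearest to the ApoD overexpression libraries. The line expressed epithelial genes. In CPM, counts scaled to a common library size, all 9 markers listed for epithelium had a mean above 1 over the 6 libraries. KRT19 averaged 0.858 CPM with ApoD overexpression and 4.74 CPM in controls. The 9 summed to 3618 to 4110 CPM with ApoD overexpression and 3154 to 4179 CPM in controls, and KRT8 was the highest in every library. Of these 9, KRT7 rose and 5 fell with ApoD overexpression, with log2 changes of −2.46 for KRT19, −1.75 for KRT14, −1.29 for CDH1, −1.05 for TP63 and −0.30 for EPCAM. Of the 5 markers listed for adenoid cystic carcinoma, 3 were measured and tested, and the others were absent from the deposited genes. MYB averaged 6.75 ± 1.10 CPM with ApoD overexpression and 9.82 ± 2.96 CPM in controls and did not pass the test. MYBL1 and NFIB did not pass either. The log2 changes were −0.54 for MYB, 0.385 for MYBL1 and −0.097 for NFIB, and the groups overlapped for each. Markers of fibroblasts summed to 9.86 to 13.8 CPM with ApoD overexpression and 26.9 to 32.6 CPM in controls over 6 measured genes, of which COL1A1 and COL3A1 were tested and fell, while COL1A2, DCN and LUM had at most 1 count in any library. Endothelial markers summed to 1.35 to 2.30 CPM with ApoD overexpression and 8.11 to 13.4 CPM in controls over 4 genes; the 3 that were tested, PECAM1, CDH5 and VWF, fell, and TEK was at 0 in every ApoD overexpression library. Leukocyte markers summed to 36.7 to 38.7 CPM with ApoD overexpression and 15.8 to 32.9 CPM in controls over 5 genes, nearly all from CD68, and PTPRC was at 0 in every ApoD overexpression library and had 1, 12 and 0 counts in controls. The fibroblast and endothelial sums and those 5 epithelial markers were lower with ApoD overexpression, in the same direction as most WNT genes that changed. KRT7 and CD68 rose, with log2 changes of 0.48 and 0.57, and the epithelial sum overlapped between groups. KRT8, KRT18 and KRT5 did not pass, with log2 changes of 0.37, 0.24 and −0.25. The part of these markers in the results was not tested.

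Of the 48 WNT genes, 41 had enough counts to be tested, and 25 of them passed the threshold, an edgeR adjusted p of 0.05 over all 14629 tested genes. With ApoD overexpression 6 rose and 19 fell. Among all tested genes 48.8% passed, 24.2% as rises and 24.6% as falls, against 14.6% and 46.3% of the WNT genes. Falls of over 2-fold made up 31.7% of the WNT genes, 13 in number, and 11.5% of all tested genes. WNT3A, WNT5B, WNT6, WNT11 and NOTUM, which are among these 13, met the filter's minimum count of 10 only with the control libraries included. A gene admitted through the controls can hardly show a large change other than a fall. Only 1 WNT gene, WNT10B, rose by over 2-fold, as did 2.84% of all tested genes. The libraries of the groups did not overlap for 30 of the 41 genes, 73.2%, against 58.7% of all tested genes. Of these, 22 were lower and 8 higher with ApoD overexpression, where 29.7% and 29% of all tested genes were. The median log2 fold change was −0.35 for the WNT genes and −0.02 for all tested genes. Fold changes differed with abundance over the whole table, so the same counts were made on either side of a mean of 200 counts, a limit set after the values were seen. Below it 10 of 17 WNT genes fell, 58.8%, against 31.6% of all tested genes in that range, and 1 rose, against 4.97%. Above it 9 of 24 fell, 37.5%, against 22% of all tested genes there, and 5 rose, against 31.5%. The median log2 fold change below the limit was −1.14 for the WNT genes and −0.56 for all tested genes. Above it the medians were −0.14 and 0.08. When tested against a change of 1.5-fold, 1 WNT gene rose and 9 fell, where 3.73% and 9.78% of all tested genes did. On filtered FPKM, fragments per unit of gene length and of library total, 5 rose and 11 fell among the 26 WNT genes left, where 22.4% of the 11215 genes left rose and 29.6% fell. With scaling by library totals alone 5 WNT genes rose and 20 fell, where 17.6% of all tested genes rose and 30.3% fell, 2580 and 4435 genes in place of 3539 and 3601.

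**Figure D1:**
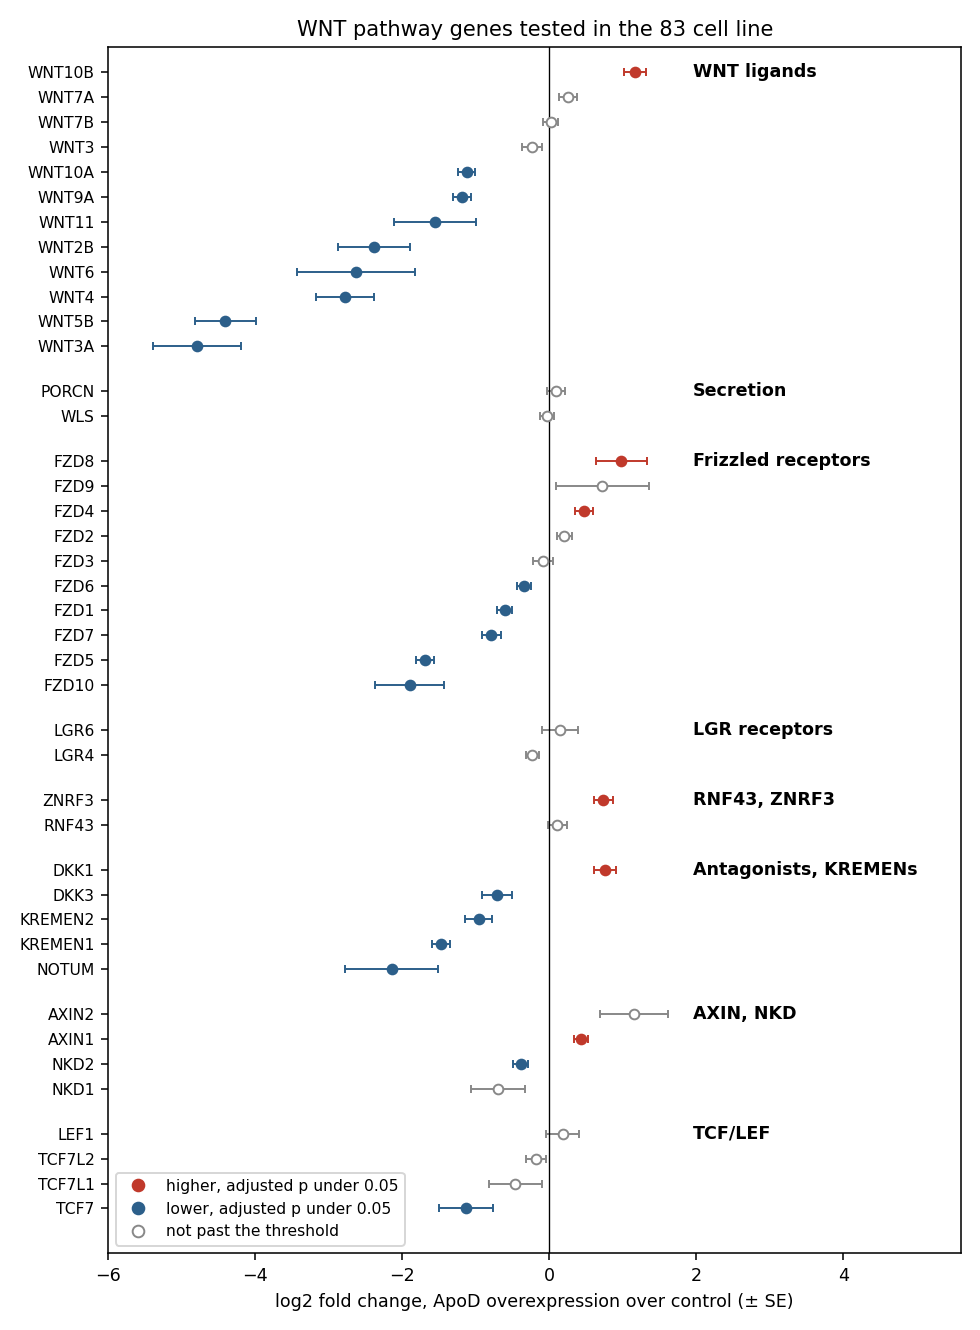
Log2 fold change of ApoD overexpression over control for the 41 tested WNT pathway genes, grouped by role, with bars of 1 SE. Filled points passed the threshold: 6 rose and 19 fell, with WNT3A and WNT5B at the left end.

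**Figure D2:**
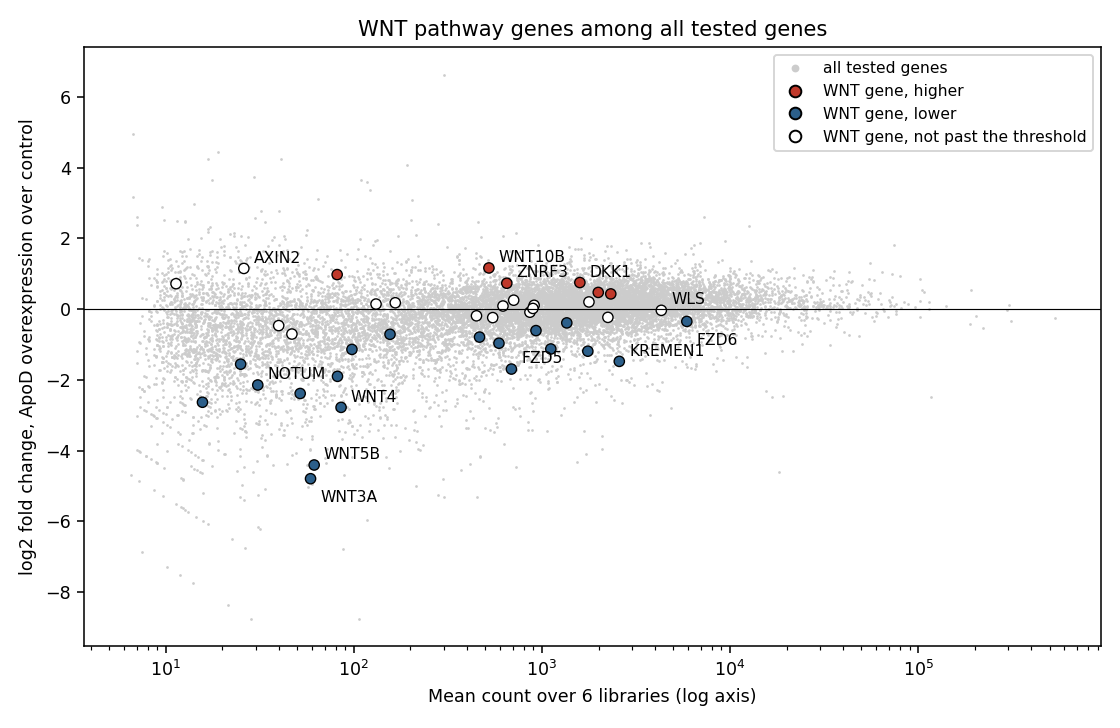
Log2 fold change of ApoD overexpression over control against the mean count over 6 libraries, on a log axis, for all 14629 tested genes in grey and the WNT genes in colour. The steepest falls among WNT genes are at low counts, while WNT9A, WNT10A and KREMEN1 fell at high counts.

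Among the ligands 8 of 12 tested fell, 66.7%, and 1 rose, 8.33%, against 24.6% and 24.2% of all tested genes. All 8 falls were over 2-fold, and falls of that size made up 11.5% of all tested genes of any abundance. The share of such falls among genes with a mean under 200 counts was not computed. WNT2B, WNT3A, WNT4, WNT5B, WNT6 and WNT11, which all fell, had mean counts under 200, where 31.6% of all tested genes fell. The steepest falls were those of WNT3A and WNT5B, which had at most 7 counts in an ApoD overexpression library and at least 49 in a control. Both, like WNT6 and WNT11, met the filter's minimum count only with the controls included. WNT9A and WNT10A, the ligands with the highest mean FPKM, each fell by more than 2-fold, while WNT10B moved the other way. WNT3, WNT7A and WNT7B did not pass the test.

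WNT3A, a ligand widely used to activate beta-catenin, had 2, 2 and 7 counts with ApoD overexpression and 49, 150 and 143 counts in controls. Its highest ApoD overexpression library lay far below its lowest control. It averaged 0.0966 ± 0.0746 CPM with ApoD overexpression and 2.78 ± 1.36 CPM in controls (SD, n = 3 each; log2 fold change −4.79 ± 0.60 SE, edgeR adjusted p = 6.07e-05). With so few counts left in the ApoD overexpression libraries, summed counts stood at 0.0349 of the control sum after scaling (95% exact counting limits 0.0172 to 0.0632, for counting error only). WNT5B, a ligand known mainly for beta-catenin-independent signalling, had 5, 6 and 4 counts with ApoD overexpression and 83, 134 and 137 counts in controls. All 3 ApoD overexpression libraries were again far below the controls, and the log2 fold change was −4.41 ± 0.42 (SE, edgeR adjusted p = 9.52e-06). WNT4, which acts in the development of the female reproductive tract and the kidney, also had separate groups: 15, 29 and 16 counts with ApoD overexpression and 88, 175 and 190 counts in controls. Control replicate 1 was the lowest control for WNT3A, WNT4 and WNT5B, and still stood above every ApoD overexpression library. WNT4 changed by −2.78 ± 0.40 on the log2 scale (SE, edgeR adjusted p = 1.51e-04). Without ApoD overexpression replicate 3, which held 7 of the 11 WNT3A counts of its group, the log2 change of WNT3A was −5.61.

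The RefSeq window of WNT3A, 250 bases before to 50 bases after the transcript start, is shown because this gene had the steepest fall. It lies at chr1:228006748-228007047 on the plus strand (GRCh38.p14). Capitals mark CAGGTG or its reverse complement CACCTG, the E-box that SNAI and ZEB repressors can bind. This motif was found 2 times in the window, on the strand opposite to CAGGTG, and 20.6% of 35116 windows of the same length hold it on either strand, as do 9 of 42 windows of WNT genes. The match is a description of letters only.
WNT3A: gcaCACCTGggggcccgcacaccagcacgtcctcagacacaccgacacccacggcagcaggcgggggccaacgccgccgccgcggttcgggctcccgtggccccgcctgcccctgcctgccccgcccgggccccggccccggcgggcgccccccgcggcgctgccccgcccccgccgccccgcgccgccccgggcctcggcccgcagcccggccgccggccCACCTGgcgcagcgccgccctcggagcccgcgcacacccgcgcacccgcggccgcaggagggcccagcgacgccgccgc

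WNT9A was the ligand with the most counts, 1097, 1005 and 927 counts with ApoD overexpression and 2181, 2929 and 2382 counts in controls. It averaged 26.8 ± 2.25 CPM with ApoD overexpression and 61.0 ± 9.24 CPM in controls (SD, n = 3 each; log2 fold change −1.19 ± 0.12 SE, edgeR adjusted p = 1.74e-05). WNT10A, a ligand whose mutations cause defects of teeth, skin appendages and sweat glands, had 718, 629 and 641 counts with ApoD overexpression and 1648, 1640 and 1410 counts in controls. Its groups were as clearly apart, and it averaged 17.6 ± 0.764 CPM with ApoD overexpression and 38.3 ± 3.71 CPM in controls (SD, n = 3 each; log2 fold change −1.13 ± 0.11 SE, edgeR adjusted p = 1.27e-05). WNT10B, its closest relative in the family, was the only ligand past the threshold that rose, with 660, 729 and 723 counts with ApoD overexpression and 394, 282 and 346 counts in controls. It averaged 18.7 ± 1.89 CPM with ApoD overexpression and 8.34 ± 1.44 CPM in controls (SD, n = 3 each; log2 fold change 1.17 ± 0.15 SE, edgeR adjusted p = 8.10e-05). Per unit of gene length, the ratio of WNT10B to WNT10A in FPKM was 0.459, 0.578 and 0.563 with ApoD overexpression and 0.119, 0.0858 and 0.122 in controls. In FPKM, WNT10A was the higher of both genes in every library.

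WNT2B, WNT6 and WNT11 also fell, from low levels. WNT2B had 11, 21 and 14 counts with ApoD overexpression and 39, 98 and 128 counts in controls, and changed by −2.38 ± 0.49 (SE, log2; edgeR adjusted p = 0.00166). Its call was lost on log2(FPKM + 1) without a filter, at an adjusted p of 0.0549. WNT6 had 10, 1 and 1 counts with ApoD overexpression and 11, 42 and 29 counts in controls, so that 10 of its 12 counts with ApoD overexpression came from 1 library, and its highest ApoD overexpression library was just below its lowest control. It changed by −2.63 ± 0.81 (SE, log2; edgeR adjusted p = 0.0173), and by −4.44 without ApoD overexpression replicate 1. Its call was lost without ApoD overexpression replicate 2 or 3 and without control replicate 2, at adjusted p of 0.0702, 0.0532 and 0.0885. WNT11, a ligand of cell movement in fish and frog embryos, had 15, 4 and 17 counts with ApoD overexpression and 56, 24 and 34 counts in controls and changed by −1.56 ± 0.56 (SE, log2; edgeR adjusted p = 0.0372). The WNT11 call was lost without ApoD overexpression replicate 1 or 2 and without control replicate 1 or 3, at adjusted p of 0.0588, 0.111, 0.149 and 0.0620. With each library's abundance trend removed, 6 ligands fell in place of 8, since WNT6 and WNT11 no longer passed, at adjusted p of 0.0759 and 0.217.

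WNT6 and WNT10A follow each other on chromosome 2 with no other protein-coding gene between their starts in RefSeq. Both fell. WNT9A and WNT3A, which also fell, stand together on chromosome 1, with 1 gene between them that RefSeq holds as a predicted model only. The windows of WNT6 and WNT10A are shown as the starts of neighbours, and lie at chr2:218859555-218859854 and chr2:218880602-218880901, both on the plus strand (GRCh38.p14). Neither window holds the E-box, nor a TCF/LEF motif, which was searched on both strands in 4 forms: CTTTGAA with its variant CTTTGAT, and CTTTGTT with its variant CTTTGTA.
WNT6: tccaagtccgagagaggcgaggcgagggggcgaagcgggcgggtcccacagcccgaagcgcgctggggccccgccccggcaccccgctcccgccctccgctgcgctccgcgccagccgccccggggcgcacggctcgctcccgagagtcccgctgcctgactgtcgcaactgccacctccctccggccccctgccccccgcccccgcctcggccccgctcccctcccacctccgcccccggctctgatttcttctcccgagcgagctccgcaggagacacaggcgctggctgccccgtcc
WNT10A: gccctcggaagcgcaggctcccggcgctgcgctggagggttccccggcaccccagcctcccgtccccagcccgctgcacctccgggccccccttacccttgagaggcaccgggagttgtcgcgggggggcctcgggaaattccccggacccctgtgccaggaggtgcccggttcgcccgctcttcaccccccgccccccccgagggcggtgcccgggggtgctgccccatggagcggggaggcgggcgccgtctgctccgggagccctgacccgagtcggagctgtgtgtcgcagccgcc

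Of the 3 ligands that did not pass, WNT7B had 897, 825 and 874 counts with ApoD overexpression and 878, 942 and 955 counts in controls, a log2 change of 0.02 ± 0.10 (SE, edgeR adjusted p = 0.881). WNT7A had 756, 751 and 715 counts with ApoD overexpression and 686, 605 and 732 counts in controls, with a log2 change of 0.25 ± 0.12 and an edgeR adjusted p of 0.0953. WNT3 had 459, 427 and 555 counts with ApoD overexpression and 569, 568 and 706 counts in controls, with a log2 change of −0.24 ± 0.14 and an edgeR adjusted p of 0.176. In CPM, WNT3 and WNT7B overlapped between the groups, and WNT7A was higher in every ApoD overexpression library than in any control.

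**Figure D3:**
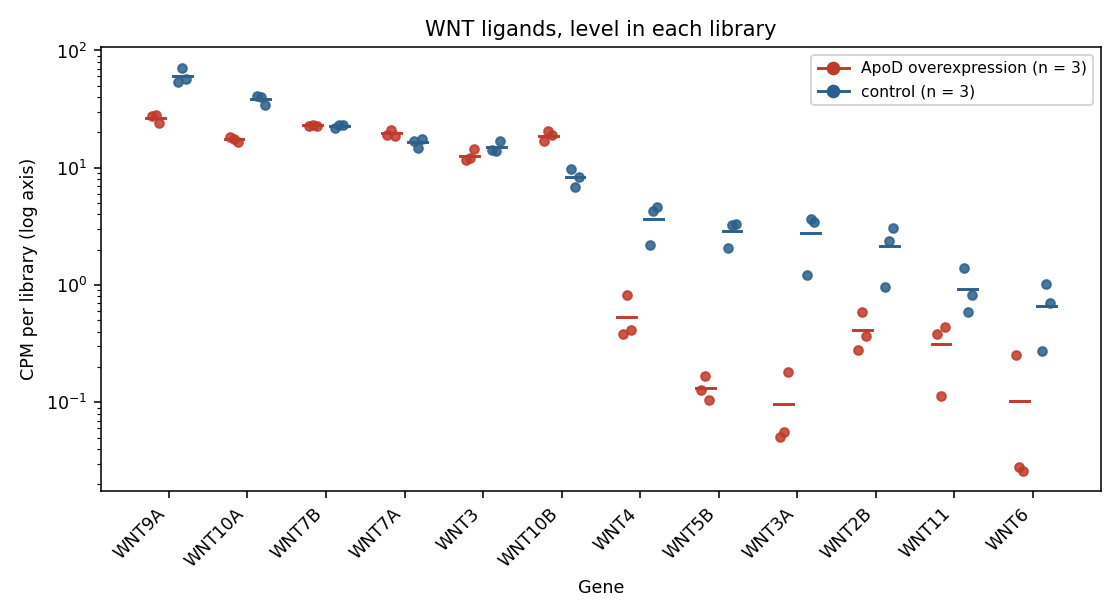
CPM of the 12 tested WNT ligands in each library on a log axis, with short lines at the group means of 3 libraries, ordered by the control mean. WNT10B is higher with ApoD overexpression, and 8 ligands are lower without overlap.

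On a per-length scale the ligands differed widely. The summed FPKM of the 16 ligands was 31.2, 31.4 and 30.4 FPKM with ApoD overexpression and 48.9, 53.5 and 51.0 FPKM in controls, so every ApoD overexpression library was below every control. FPKM are scaled by library totals alone, without the TMM factors used for CPM. These were 0.946 to 0.975 with ApoD overexpression and 1.02 to 1.07 in controls. FPKM therefore stand somewhat lower with ApoD overexpression, relative to controls, than CPM do. By group mean WNT10A and WNT9A ranked first and second in both groups, although WNT7B stood above WNT9A in ApoD overexpression replicate 3. WNT10A made up 24.3% ± 1.01 with ApoD overexpression and 34.8% ± 3.21 in controls of the ligand FPKM (SD, n = 3 each), and WNT9A made up 17.8% ± 1.21 with ApoD overexpression and 26.5% ± 2.80 in controls. WNT7B, which changed little in level, made up 17.1% ± 0.258 with ApoD overexpression and 11.1% ± 0.451 in controls, and WNT10B made up 12.9% ± 1.10 with ApoD overexpression and 3.80% ± 0.794 in controls. A share of a sum moves when the other members move, so these shares describe the mixture and not each gene.

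The secretion factors did not pass the test. WLS, the carrier of lipid-bearing WNTs, averaged 108 ± 4.16 CPM with ApoD overexpression and 111 ± 9.59 CPM in controls, with a log2 change of −0.03 ± 0.09 (SE, edgeR adjusted p = 0.796). PORCN, the enzyme that attaches the lipid, had 668, 580 and 596 counts with ApoD overexpression and 571, 647 and 661 counts in controls and a log2 change of 0.09 ± 0.12 (SE, edgeR adjusted p = 0.552). The groups overlapped for both genes.

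Among the 10 Frizzled receptors, all of which were tested, 5 fell and 2 rose. These were 50% and 20%, against 24.6% and 24.2% of all tested genes. FZD5 and FZD10 fell by over 2-fold, FZD7, FZD1 and FZD6 by less, and FZD4 and FZD8 rose. FZD6 remained the most abundant receptor in both groups. FZD2, FZD3 and FZD9 did not pass.

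FZD5, a receptor needed in the mouse intestine and eye, had 320, 260 and 337 counts with ApoD overexpression and 969, 1112 and 1130 counts in controls. Every ApoD overexpression library lay far below the lowest control, and the level averaged 8.08 ± 0.738 CPM with ApoD overexpression and 26.2 ± 1.85 CPM in controls (SD, n = 3 each; log2 fold change −1.69 ± 0.12 SE, edgeR adjusted p = 1.82e-06). FZD10 had 49, 36 and 12 counts with ApoD overexpression and 73, 198 and 123 counts in controls, and control replicate 1, the lowest control, was nearest to the ApoD overexpression libraries. It changed by −1.90 ± 0.47 (SE, log2; edgeR adjusted p = 0.00554). FZD7 had 346, 298 and 329 counts with ApoD overexpression and 632, 584 and 605 counts in controls, and FZD1 had 735, 693 and 675 counts with ApoD overexpression and 1124, 1171 and 1178 counts in controls. Both receptors were lower in every ApoD overexpression library than in any control, with log2 changes of −0.79 ± 0.13 and −0.61 ± 0.10 (SE, edgeR adjusted p = 3.20e-04 and 5.03e-04). FZD6, which takes part in hair patterning in mice, had 5852, 4285 and 4761 counts with ApoD overexpression and 6629, 7268 and 6559 counts in controls. It changed by −0.35 ± 0.10 (SE, log2; edgeR adjusted p = 0.0137), with no overlap between groups. The FZD6 call did not hold when control replicate 2 or ApoD overexpression replicate 3 was left out, at adjusted p of 0.0751 and 0.0741.

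FZD4, the receptor of norrin as well as of WNTs, had 2620, 1953 and 2153 counts with ApoD overexpression and 1994, 1708 and 1524 counts in controls. In CPM its libraries did not overlap, and it averaged 59.2 ± 6.35 CPM with ApoD overexpression and 42.6 ± 6.36 CPM in controls (SD, n = 3 each; log2 fold change 0.47 ± 0.12 SE, edgeR adjusted p = 0.00719). Its call was lost on log2(FPKM + 1) without a filter, at an adjusted p of 0.0982. FZD8 had 72, 122 and 121 counts with ApoD overexpression and 84, 45 and 45 counts in controls, and ApoD overexpression replicate 1 lay within the range of the controls. It changed by 0.98 ± 0.35 (SE, log2; edgeR adjusted p = 0.0355). The FZD8 call was lost without ApoD overexpression replicate 2 or 3 and without control replicate 2 or 3, at adjusted p of 0.125, 0.0807, 0.122 and 0.0925, and with scaling by library totals, at 0.0625. With the replicate number as a block it was 0.0538. FZD2 had 1794, 1793 and 1906 counts with ApoD overexpression and 1757, 1610 and 1807 counts in controls, a log2 change of 0.20 ± 0.10 (SE, edgeR adjusted p = 0.0977), and was higher in every ApoD overexpression library on the CPM scale. FZD3 and FZD9 overlapped between groups, with log2 changes of −0.08 ± 0.14 and 0.72 ± 0.63 (SE), the last from at most 21 counts.

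Scaled by library totals alone, the 10 Frizzleds also summed lower with ApoD overexpression. Their summed FPKM was 66.5, 57.2 and 59.0 FPKM with ApoD overexpression and 75.9, 78.9 and 76.0 FPKM in controls. FZD6 made up 54.2% ± 2.62 with ApoD overexpression and 59.2% ± 1.65 in controls (SD, n = 3 each) of it, and FZD2 made up 20.4% ± 2.37 with ApoD overexpression and 15.1% ± 1.33 in controls. FZD4 made up 12.6% ± 0.502 with ApoD overexpression and 7.80% ± 1.07 in controls, and FZD5 made up 1.38% ± 0.143 with ApoD overexpression and 3.82% ± 0.319 in controls. The order of the first 5, FZD6, FZD2, FZD4, FZD1 and FZD7, was the same in both groups, while FZD5 stood sixth in controls and seventh with ApoD overexpression. The ratio of FZD4 to FZD5 in FPKM was 10.3, 9.41 and 8.01 with ApoD overexpression and 2.58, 1.92 and 1.69 in controls.

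**Figure D4:**
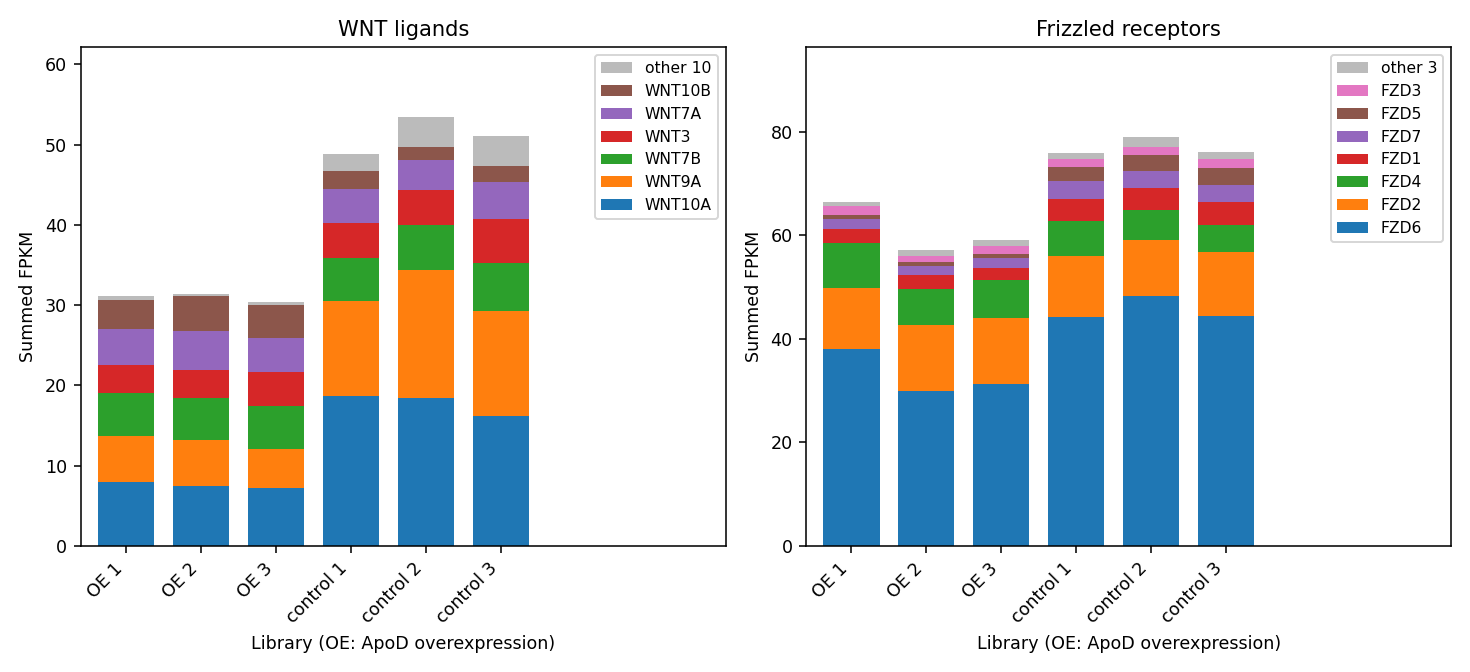
Summed FPKM of the WNT ligands (left) and Frizzled receptors (right) in each library, ApoD overexpression libraries first, split by gene with the less abundant genes in grey. Both sums, scaled by library totals alone, are lower in all 3 ApoD overexpression libraries, and WNT10A and FZD6 are the tallest segments in all 6.

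LGR4 and LGR6 are receptors for R-spondins, secreted proteins that raise the cell's response to WNTs by removing the ubiquitin ligases RNF43 and ZNRF3 from the membrane. These ligases mark Frizzleds for destruction. ZNRF3 rose, with 900, 662 and 804 counts with ApoD overexpression and 547, 514 and 475 counts in controls. It averaged 20.8 ± 2.11 CPM with ApoD overexpression and 12.5 ± 1.04 CPM in controls (SD, n = 3 each; log2 fold change 0.73 ± 0.13 SE, edgeR adjusted p = 5.33e-04). RNF43 did not pass, with 934, 773 and 1017 counts with ApoD overexpression and 1027, 894 and 806 counts in controls and a log2 change of 0.11 ± 0.13 (SE, edgeR adjusted p = 0.505). LGR4 had 2164, 1740 and 2023 counts with ApoD overexpression and 2512, 2595 and 2418 counts in controls, all lower with ApoD overexpression, and missed the threshold with a log2 change of −0.23 ± 0.09 (SE, edgeR adjusted p = 0.0544). It passed with scaling by library totals, with the abundance trend removed and on FPKM, at adjusted p between 0.00789 and 0.0155. LGR6 had 123, 111 and 164 counts with ApoD overexpression and 150, 137 and 102 counts in controls, which overlapped, and an edgeR adjusted p of 0.649.

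Of the extracellular antagonists and KREMEN proteins, 4 of 5 tested fell and 1 rose. These were 80% and 20%, against 24.6% and 24.2% of all tested genes. KREMEN1 and KREMEN2, membrane proteins that bind DKK proteins and with them remove LRP6 from the surface, fell together, while DKK1, their ligand, rose. NOTUM, an enzyme that removes the lipid from WNTs, and DKK3, a more distant member of the DKK family, fell.

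KREMEN1 had 1490, 1059 and 1310 counts with ApoD overexpression and 3221, 4077 and 4307 counts in controls. Its libraries were far apart between groups, and it averaged 33.9 ± 4.02 CPM with ApoD overexpression and 94.5 ± 12.9 CPM in controls (SD, n = 3 each; log2 fold change −1.48 ± 0.12 SE, edgeR adjusted p = 4.68e-06). KREMEN2 had 405, 365 and 367 counts with ApoD overexpression and 574, 777 and 1057 counts in controls, with a wide spread among the controls. It changed by −0.96 ± 0.18 (SE, log2; edgeR adjusted p = 0.00108). DKK1, which blocks LRP5 and LRP6, had 1635, 2173 and 1984 counts with ApoD overexpression and 1095, 1156 and 1500 counts in controls. It averaged 51.5 ± 9.83 CPM with ApoD overexpression and 30.5 ± 4.96 CPM in controls (SD, n = 3 each; log2 fold change 0.75 ± 0.15 SE, edgeR adjusted p = 0.00148), and its lowest ApoD overexpression library stood above its highest control in CPM. The ratio of DKK1 to KREMEN1 in FPKM was 8.20 ± 2.52 with ApoD overexpression and 1.71 ± 0.186 in controls (SD, n = 3 each). NOTUM had 24, 5 and 3 counts with ApoD overexpression and 40, 42 and 71 counts in controls, and 24 of its 32 counts with ApoD overexpression came from replicate 1. It changed by −2.14 ± 0.63 (SE, log2; edgeR adjusted p = 0.0146), and by −3.45 without that library. DKK3 had 126, 101 and 110 counts with ApoD overexpression and 202, 173 and 222 counts in controls and changed by −0.71 ± 0.20 (SE, log2; edgeR adjusted p = 0.0120). The calls of NOTUM and DKK3 were lost with the abundance trend removed (adjusted p = 0.0647 and 0.158) and without control replicate 3 (0.0538 and 0.0517), which left 2 falls in this class each time, and that of NOTUM also without ApoD overexpression replicate 2 (0.0553).

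The window of DKK1, the only antagonist that rose, lies at chr10:52314031-52314330 on the plus strand (GRCh38.p14). Capitals mark the TCF/LEF motif, searched in the 4 forms named above. It was found 2 times, as CTTTGAA and CTTTGTT, 95 and 76 bases before the start of transcription. Of all windows of this length 13.8% hold at least 1 such match, and of the 42 windows of WNT genes in the RefSeq table, which belong to 31 genes, 4 do. The others belong to TCF7, which fell, and to TCF7L2 and WNT3, which did not pass. Here too the match is a description of letters only.
DKK1: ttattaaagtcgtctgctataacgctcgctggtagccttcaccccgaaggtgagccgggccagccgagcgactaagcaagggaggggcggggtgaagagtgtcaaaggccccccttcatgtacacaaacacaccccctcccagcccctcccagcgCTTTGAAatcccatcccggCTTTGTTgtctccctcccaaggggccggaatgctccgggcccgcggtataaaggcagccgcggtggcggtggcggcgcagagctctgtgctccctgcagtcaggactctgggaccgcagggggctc

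AXIN and NKD genes, which act inside the cell, were split. AXIN1, the scaffold of the complex that destroys beta-catenin, rose, with 2399, 2489 and 2832 counts with ApoD overexpression and 2013, 2109 and 2091 counts in controls, and averaged 68.3 ± 6.67 CPM with ApoD overexpression and 50.6 ± 0.805 CPM in controls (SD, n = 3 each; log2 fold change 0.43 ± 0.10 SE, edgeR adjusted p = 0.00322). AXIN2, the relative that is a direct target of beta-catenin and TCF in most tissues, was barely detected, with 45, 35 and 25 counts with ApoD overexpression and 12, 24 and 15 counts in controls. All 3 ApoD overexpression libraries were above the controls, by as little as 25 against 24 counts, and the change of 1.15 ± 0.47 (SE, log2) missed the threshold at an edgeR adjusted p of 0.0588. AXIN2 passed with the abundance trend removed, at 0.00670. In FPKM, AXIN2 stood at 0.166 ± 0.0458 with ApoD overexpression and 0.0804 ± 0.0290 in controls, and AXIN1 at 12.1 ± 1.07 with ApoD overexpression and 9.72 ± 0.272 in controls (SD, n = 3 each). NKD2, which like NKD1 binds Dishevelled, fell, with 1163, 1089 and 1108 counts with ApoD overexpression and 1424, 1634 and 1714 counts in controls and a log2 change of −0.39 ± 0.10 (SE, edgeR adjusted p = 0.00780). Leaving out ApoD overexpression replicate 3 ended the NKD2 call, at an adjusted p of 0.0515. NKD1 had 38, 20 and 44 counts with ApoD overexpression and 59, 55 and 65 counts in controls and did not pass, with a log2 change of −0.70 ± 0.37 (SE, edgeR adjusted p = 0.131).

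**Figure D5:**
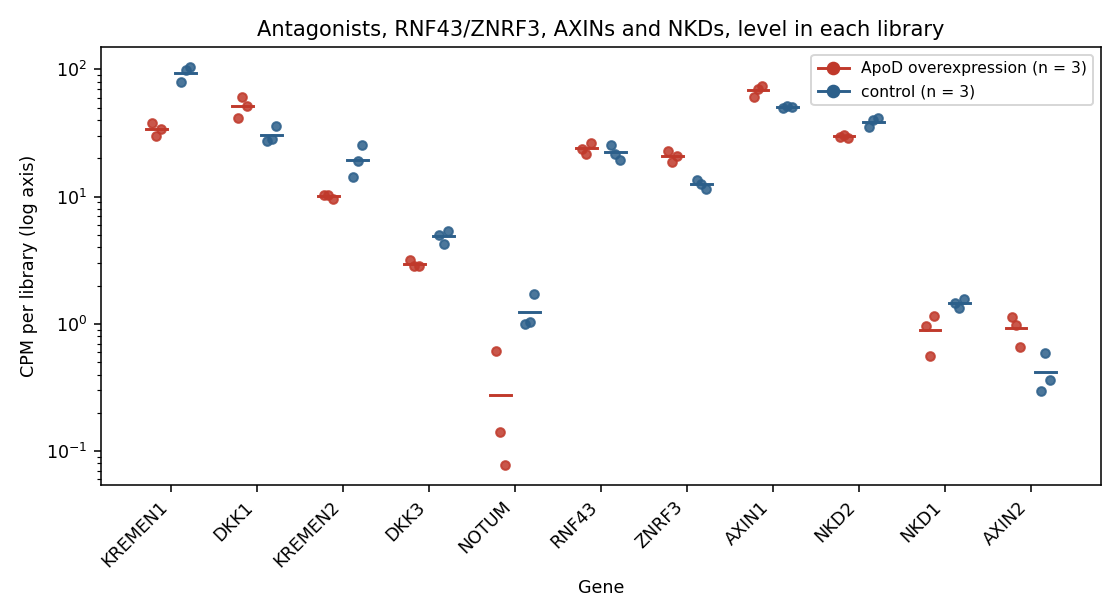
CPM of the antagonists and KREMENs, of RNF43 and ZNRF3 and of the AXIN and NKD genes in each library on a log axis, with short lines at the group means of 3 libraries. DKK1, ZNRF3 and AXIN1 are higher with ApoD overexpression, and KREMEN1, KREMEN2, DKK3, NOTUM and NKD2 are lower.

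Of the 4 TCF/LEF factors, which carry beta-catenin to DNA, 1 passed, 25%, against 48.8% of all tested genes. TCF7 fell, with 67, 45 and 61 counts with ApoD overexpression and 76, 110 and 227 counts in controls, and control replicate 3 was the highest library by a wide margin, though the groups did not overlap. It changed by −1.14 ± 0.37 (SE, log2; edgeR adjusted p = 0.0230) and by −0.57 without control replicate 3, where the adjusted p was 0.196. The call was also lost without ApoD overexpression replicate 2 (0.0767) and with the abundance trend removed (0.134). TCF7L2, the member of the class with the most counts, averaged 10.6 ± 0.599 CPM with ApoD overexpression and 12.1 ± 1.18 CPM in controls, LEF1 averaged 4.48 ± 0.885 CPM with ApoD overexpression and 3.96 ± 0.665 CPM in controls, and TCF7L1 averaged 0.842 ± 0.158 CPM with ApoD overexpression and 1.17 ± 0.0706 CPM in controls. Their log2 changes of −0.19 ± 0.13, 0.18 ± 0.22 and −0.46 ± 0.36 (SE) did not pass, with edgeR adjusted p of 0.271, 0.530 and 0.310. TCF7L1 stood at 0.10 with the abundance trend removed, and passed only on log2(FPKM + 1) without a filter (adjusted p = 0.0431).

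The remaining 7 genes had too few counts for the test. WNT8B had 1, 0 and 0 counts with ApoD overexpression and 13, 4 and 3 counts in controls, or 0.0542 of the control sum after scaling (95% exact counting limits 0.00131 to 0.339). WNT16 had 4, 1 and 1 counts with ApoD overexpression and 4, 10 and 0 counts in controls, and WNT5A, a common ligand of beta-catenin-independent signalling, had 1, 0 and 5 counts with ApoD overexpression and 1, 1 and 1 counts in controls. SFRP1, SFRP2, DKK2 and WNT2 had at most 1 count in any library, so that a difference in these genes was not detectable at this depth.

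Other genes of the pathway were read from lists outside the pattern. Of 24 genes of the co-receptors and the beta-catenin core, 5 rose and 5 fell, 20.8% each, against 24.2% and 24.6% of all tested genes, with a median log2 fold change of 0.04. CTNNB1, which encodes beta-catenin, averaged 335 ± 9.57 CPM with ApoD overexpression and 327 ± 20.2 CPM in controls and had a log2 change of 0.04 ± 0.09 (SE, edgeR adjusted p = 0.750), and the co-receptors LRP5 and LRP6 did not pass, with log2 changes of 0.19 ± 0.09 and −0.09 ± 0.14 (SE). TLE2 and TLE4, co-repressors that bind TCF factors, fell, with log2 changes of −3.43 ± 0.27 and −1.04 ± 0.31 (SE, edgeR adjusted p = 2.62e-06 and 0.0146). CTNNBIP1, which keeps beta-catenin from TCF factors, fell, and AMER1, which binds APC and AXIN, rose, with log2 changes of −0.92 ± 0.14 and 0.85 ± 0.11 (SE, edgeR adjusted p = 2.31e-04 and 6.79e-05). TLE2 had 34, 43 and 25 counts with ApoD overexpression and 299, 434 and 472 counts in controls, the widest separation in this list.

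Of 14 tested genes of non-canonical signalling and planar polarity, 4 rose and 5 fell, 28.6% and 35.7%, against 24.2% and 24.6% of all tested genes, with a median log2 fold change of −0.06. ROR1, a receptor for WNT5A, rose, with 185, 157 and 197 counts with ApoD overexpression and 61, 83 and 97 counts in controls and a log2 change of 1.28 ± 0.23 (SE, edgeR adjusted p = 8.36e-04). CELSR2, an atypical cadherin, fell by 1.47 ± 0.11 and VANGL2, a core polarity protein, fell by 1.11 ± 0.15 on the log2 scale (SE, edgeR adjusted p = 2.63e-06 and 1.18e-04). PRICKLE2, another polarity gene, had at most 34 counts in any library and fell by 1.22 ± 0.47 (edgeR adjusted p = 0.0462).

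Of 4 tested R-spondins and other extracellular modulators, 1 rose and 1 fell, about the share over all tested genes. TRABD2A, a membrane protease that inactivates WNTs, rose by 0.45 ± 0.12, and ADGRA2, a co-receptor for WNT7 ligands in mouse and zebrafish vessels, fell by 1.57 ± 0.17 on the log2 scale (SE, edgeR adjusted p = 0.0104 and 2.34e-05). RSPO2 and RSPO3, the R-spondins analysed here, had at most 5 counts in any library.

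Of 14 tested genes that are known targets of beta-catenin and TCF in other tissues, 7 rose and 2 fell, 50% and 14.3%, against 24.2% and 24.6% of all tested genes, with a median log2 fold change of 0.30. Most of them answer to other pathways as well. Most also had a mean of 200 counts or more, where 31.5% of all tested genes rose and 22% fell. MMP7, a further listed target, had too few counts for the test. It had 1, 5 and 1 counts with ApoD overexpression and 7, 28 and 27 counts in controls. FOSL1, JUN and CCND1 rose by 1.71 ± 0.13, 1.26 ± 0.12 and 1.22 ± 0.11 on the log2 scale (SE), and the receptor EPHB3 fell by 3.07 ± 0.20 (edgeR adjusted p = 2.31e-06, 9.95e-06, 5.96e-06 and 7.78e-07). EPHB3 had 91, 78 and 84 counts with ApoD overexpression and 549, 872 and 890 counts in controls. SP5, a target that answers closely to the pathway in many cell types, had 59, 53 and 83 counts with ApoD overexpression and 73, 52 and 53 counts in controls and did not pass, with a log2 change of 0.24 ± 0.32 (SE, edgeR adjusted p = 0.555). Among the feedback targets inside the pattern, DKK1 and ZNRF3 rose, NOTUM fell, and AXIN2, NKD1 and RNF43 did not pass.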

How the data were processed

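RNA was sequenced from 6 libraries of the 83 cell line, made with a SMARTER mRNA-Seq kit per the labels' protocols. The authors deposited whole-number counts for 21676 gene symbols and FPKM values for the same genes; dividing counts by column totals and by 1 length per gene gave all 108650 non-zero FPKM values back (relative tolerance 1e-06). Aligner, counter, strand setting and genome build were not given in the sources used here, so reads of genes that overlap, antisense genes included, cannot be told apart. Counts were tested over 14629 genes in edgeR 4.0.16 under R 4.3.3 by its quasi-likelihood test (TMM scaling, filterByExpr with a minimum count of 10, two-sided, Benjamini-Hochberg, threshold 0.05), with all 6 libraries and no covariate. Fold changes are ApoD overexpression over control; their SE is the log2 change over the square root of F, and levels are CPM on TMM-scaled library sizes. Counting intervals are exact binomial (Clopper-Pearson, 95%). Alternatives were DESeq2 1.42.0 size factors and its Wald test, library totals, offsets removing each library's abundance trend, no filter, a replicate block, a test against a 1.5-fold change, limma 3.58.1 on log2(FPKM + 1 or 0.1) with a filter of 1 FPKM in 3 libraries or none, and each library left out. The tests were checked on simulated counts in which few genes changed and fold changes had no trend with abundance. The deposited counts differ in both respects, so the check does not cover the scaling or that trend. The WNT genes and lists were chosen with earlier results of these data known. Each tested WNT gene was named with its call, and up to 4 called genes from each further list by size of change; the others named from those lists were chosen after their values were seen. Promoter windows are from RefSeq (GRCh38.p14). Libraries of 1 group differed by more than sampling noise, at 9.74 to 32.2 chi-square per degree of freedom.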

Additional observations from a re-analysis of the deposited data

How the results depend on the processing

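Of the 25 WNT genes that passed, 9 kept their call in every alternative that tested them, FZD5, FZD10, KREMEN1, WNT3A, WNT4, WNT5B, WNT9A, WNT10A and WNT10B, and 15 did when the test against a 1.5-fold change is set aside; no called gene changed direction in any of the 16 alternatives. Leaving out 1 library at a time gave 5 to 6 WNT genes higher and 15 to 18 lower, 6 to 7 ligands, 4 to 5 Frizzleds and 2 to 4 antagonists and KREMENs lower, and 2690 to 3712 genes higher and 2764 to 3807 lower in the whole table. Against a 1.5-fold change 1 WNT gene rose and 9 fell, with 2 Frizzleds and 1 antagonist or KREMEN lower, and 545 and 1430 genes in the whole table. On filtered FPKM with a pseudocount of 1 or 0.1, 11 WNT genes fell in each case, 2 of them ligands, where only 26 WNT genes passed the filter. WNT2B, WNT3A, WNT4, WNT5B, WNT6 and WNT11 did not pass that filter, so they were not tested there. Without the filter all 48 WNT genes and all 21676 genes were kept, not the 41 and 14629 of the main test. In that setting 5 ligands and 17 WNT genes fell, and 3948 genes fell and 2317 rose over the whole table. With the abundance trend removed 5 WNT genes lost their calls, WNT6, WNT11, DKK3, NOTUM and TCF7, all of them falls. In that setting 2 gained a call, AXIN2 as a rise and LGR4 as a fall, and 2 antagonists and KREMENs fell. The share of all tested genes called in that setting is not given here, and the cause of these changes was not tested. The median log2 change of the WNT genes was −0.46 with library totals, where that of all genes was −0.13. It was −0.20 with the trend removed, where that of all genes was 0.005, and −0.17, −0.25 and −0.19 on FPKM. Whole-table calls split 2580 higher and 4435 lower with library totals, against 3539 and 3601. On unfiltered log2(FPKM + 1) FZD4, FZD8, TCF7, WNT2B, WNT6 and WNT11 lost their calls. Libraries with the same replicate number did not deviate together, with correlations of −0.115, −0.00573 and −0.0391 over genes; the fit with the replicate block gave 5 WNT genes higher and 19 lower, without FZD8, and 3088 and 3260 in the whole table. Genes with few counts, such as FZD9 with at most 21 in any library, are limited by counting error.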
